A study of Rattus norvegicus with 4 samples.

Results

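The genes described here encode the proteins of the cytosolic ribosome, measured by RNA sequencing in rat liver. They are the rows of the deposited gene table whose symbol starts with Rpl or Rps and a digit, or is Rpsa, Rplp0, Rplp1 or Rplp2. Symbols of the Rps6k kinases and paralog-like symbols that end in l and a digit after the protein's own number, such as Rpl22l1, were left out. The rule found 109 of 32545 rows, with 86 different symbols, 66 rows for the large subunit (60S) and 43 for the small subunit (40S). The data are 2 libraries from rats under forced activity alone, the control (FA1 and FA2), and 2 from rats that had sleep restriction added to forced activity (SR1 and SR2), so that every animal was kept active. The series describes the sleep restriction as chronic. Strain, age, sex and the length of the treatment are not given in the sources used here, and nothing says whether each library came from a separate animal, so p-values measure only the spread between these libraries.

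A ribosome is built from ribosomal RNA and one copy of nearly every one of these proteins, and a hepatocyte, which secretes most plasma proteins, holds many ribosomes. Ribosomal protein mRNAs are known for a 5′ terminal oligopyrimidine (TOP) tract, a C followed by a run of C and U at the very start of the transcript. Through this tract their translation follows the nutrient and growth signal of the kinase complex mTORC1, with Larp1 as the protein that binds the tract. Their genes are short, and their transcripts have left many processed copies in mammalian genomes, so reads of a member can also match such copies.

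The tabulated counts summed to between 508202.6 and 520275.6 per library. The table's name and its steps of 0.1 point to repeated drawing of reads to a common total, and by those steps the replicate 1 libraries were sequenced more deeply than the replicate 2 libraries. Replicate number and depth therefore cannot be told apart, and changes within replicate 1 (SR1 over FA1) and within replicate 2 are given beside the pooled ones. All 9 hepatocyte markers were detected, with summed levels of 164610 to 179980 CPM (the count scaled to a library of 1000000 counts, with TMM factors). Of 4986 genes tested across the table, 1 passed an adjusted p under 0.05 in edgeR, or 0.0201%, and it was no ribosomal protein gene.

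The starts of these genes are shown first because the TOP tract is the sequence feature the family is known for. RefSeq windows of the build GRCr8, from 250 bases before to 50 bases after each gene's start, were matched by symbol to 46 of the 60 canonical symbols tested. The chromosome name was that of the counted row for 45 of them and differed for Rpl37. A tract, read on the gene's strand as a C followed by at least 4 further C or T letters and beginning no more than 5 bases from the annotated start, was present in 31 of 46 windows (67.4%). The same search found it in 17.5% of 3803 tested genes outside the family and in 17.0% of all 33469 RefSeq windows. A C on the start base itself, followed by at least 4 further C or T letters, was present in 43.5% of the members' windows. In the other tested genes it was present in 2.29%. Neither search checked the bases before the C, so a longer run of C and T letters can open upstream of it. The spelled form CTTTC, which is one case of this tract, was found within the same distance in 28.3% and 1.45%. A match is a string in the reference and no measurement of where transcripts began in these livers.

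Below are stretches of 40 bases, 20 on either side of the start, 5′ to 3′. Capitals mark the tract from the matching C closest to the start to the end of its run. Any C or T letters directly before that C stay in lower case. The first 4 belong to members with low p in the comparison of the groups and the last 3 to members whose levels were nearly equal or higher under sleep restriction. In GRCr8 they lie at chr2:23814497-23814536 on the plus strand (Rps23), chr20:4933725-4933764 plus (Rps18), chr7:15311314-15311353 minus (Rps28), chr7:113507971-113508010 minus (Rpl3), chr9:81748071-81748110 plus (Rpl37a), chrX:121195877-121195916 minus (Rpl39) and chr9:1533760-1533799 plus (Rpl36).
Rps23: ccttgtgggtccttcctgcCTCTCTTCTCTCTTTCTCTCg
Rps18: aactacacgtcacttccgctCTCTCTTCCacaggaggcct
Rps28: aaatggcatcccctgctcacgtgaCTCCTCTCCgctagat
Rpl3: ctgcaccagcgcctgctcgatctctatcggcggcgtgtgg
Rpl37a: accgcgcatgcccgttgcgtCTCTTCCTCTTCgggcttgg
Rpl39: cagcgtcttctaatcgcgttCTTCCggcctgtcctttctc
Rpl36: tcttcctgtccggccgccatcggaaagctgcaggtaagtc

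Both kinds of window occurred in both sets, with Rpl3 and Rpl36 lacking a tract at the annotated start. The 31 members with a tract had a median log2 change of -0.28, and the 15 without one had -0.26.

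The question of the study's only comparison is which liver transcripts differ when sleep restriction is added to forced activity. Ribosomal protein transcripts took a smaller part of the libraries under sleep restriction. All 109 rows together held 1.53% of the counts in FA1 and 1.61% in FA2, against 1.34% in SR1 and 1.28% in SR2. The groups did not overlap. The 95% Wilson intervals were 1.5% to 1.57%, 1.58% to 1.65%, 1.31% to 1.38% and 1.25% to 1.31%. They cover counting error only and take each total as 1 draw of reads. For values averaged over several draws they are wider than that error, by the steps of 0.1 mainly in FA1 and SR1. The mean share was 1.57% ± 0.056 under forced activity and 1.31% ± 0.047 under sleep restriction (SD, n = 2 each), a ratio of 0.834. An exact two-sided permutation test of 2 against 2 libraries cannot go below 0.333, so no test is given. In bulk liver, a lower level can mean fewer cells of a type or less RNA per cell, and these cannot be told apart.

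**Figure D1:**
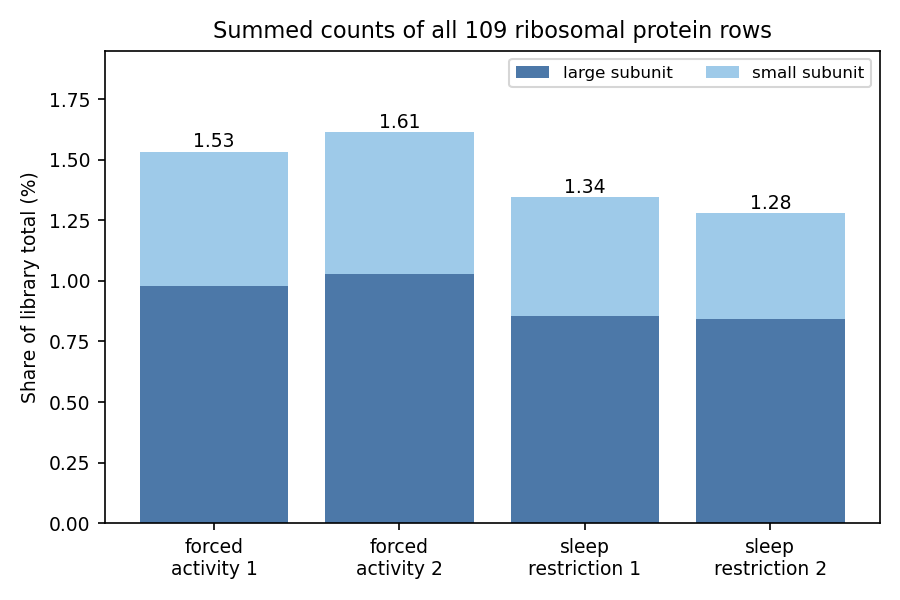
Summed counts of all 109 ribosomal protein rows as a percent of each library's total (y axis), split into large subunit (lower bar part, dark) and small subunit (light) for the 4 libraries. The forced activity libraries stand at 1.53% and 1.61% and the sleep restriction libraries at 1.34% and 1.28%.

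Both subunits shared the direction. Large subunit rows held 0.979% (FA1), 1.03% (FA2), 0.855% (SR1) and 0.842% (SR2) of the counts, a ratio of 0.845. Small subunit rows held 0.554% and 0.584%, then 0.490% and 0.436%, a ratio of 0.813. Neither subunit's groups overlapped. The counts of the large subunit were 1.77, 1.76 and 1.75 times those of the small subunit in FA1, FA2 and SR1, and 1.93 times in SR2, so the last library stood apart by its lower small subunit share.

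Of the 109 rows, 64 passed the filter on low counts and were tested, 38 of the large and 26 of the small subunit. The filter asks for enough counts in at least 2 libraries, whichever group they belong to. No member passed the adjusted threshold in edgeR's quasi-likelihood test, where the smallest adjusted p of any member was 0.999. Every log2 change is SR relative to FA, so that a negative value means a lower level in the sleep-restricted rats. The log2 change was negative for 61 of 64 members (95.3%), against 47.5% of all tested genes. The median was -0.26 over the members and 0.0034 over all tested genes, and the members ran from -0.57 to 0.20. At an unadjusted p under 0.05, 4 members were lower (6.25%, against 1.36% of all tested genes) and 0 were higher (against 2.85%). That count of 4 depended on single libraries: it was 0 when FA1 was left out, 1 when FA2, 9 when SR1 and 0 when SR2 was left out. Over all tested genes the share lower at that p was 0.979%, 0.602%, 3.42% and 0.675% in the same fits. With all 4 libraries DESeq2 gave 0 members, against 0.261% of all tested genes. With FA1, FA2, SR1 or SR2 left out, the number of tested members with a negative change was 57 of 65, 61 of 64, 52 of 65 and 60 of 65. Over all tested genes the negative share in these fits was 48.9%, 47.1%, 51.9% and 52.6%.

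**Figure D2:**
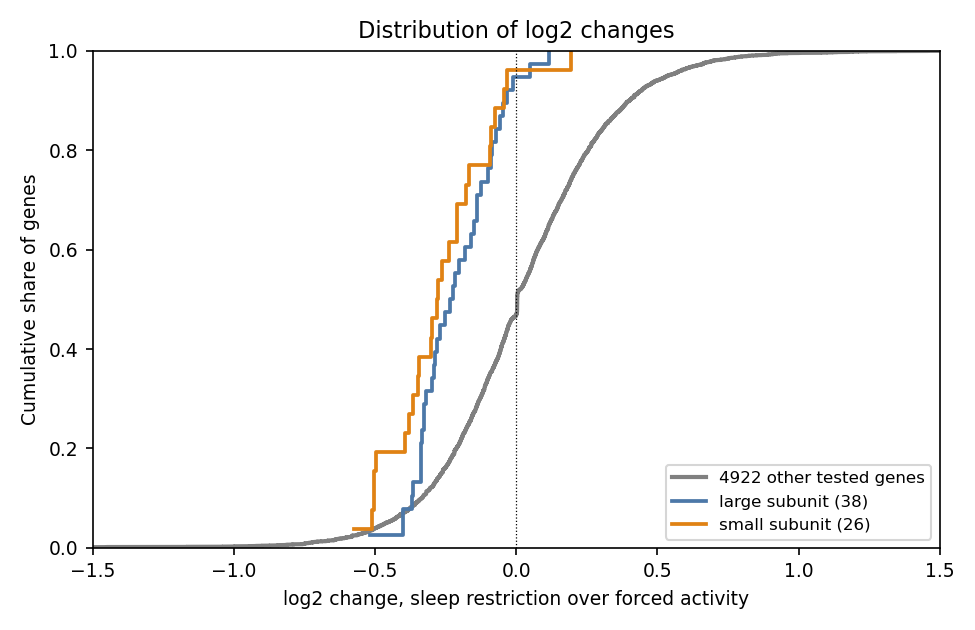
Cumulative share of genes (y axis) by log2 change of sleep restriction over forced activity (x axis) for 38 large subunit members, 26 small subunit members and 4922 other tested genes. Both subunit curves lie to the left of the grey curve, and 61 of 64 members lie below 0. The axis ends at -1.5 and 1.5, beyond which 7 other genes fall.

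Replicate spread can be read from how the groups overlap. In 35 of 64 members (54.7%) both sleep restriction libraries lay below both forced activity libraries, which held for 15.5% of all tested genes. In 0 members did both lie above, against 16.8% of all tested genes. The lowest of the 4 libraries was an SR library in 61 members, SR2 in 35 and SR1 in 26. The highest was an FA library in 56. Which library was lowest or highest was not counted over all tested genes, so these counts have no share beside them. Within a group the libraries differed less as a set: the median log2 difference of replicate 2 over replicate 1 was -0.035 under forced activity, with 36 members negative and 28 positive, and -0.059 under sleep restriction, with 35 negative and 29 positive. Small subunit members differed more within sleep restriction, where the median was -0.26 and 17 of 26 were lower in replicate 2, against 0.029 for large subunit members.

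**Figure D3:**
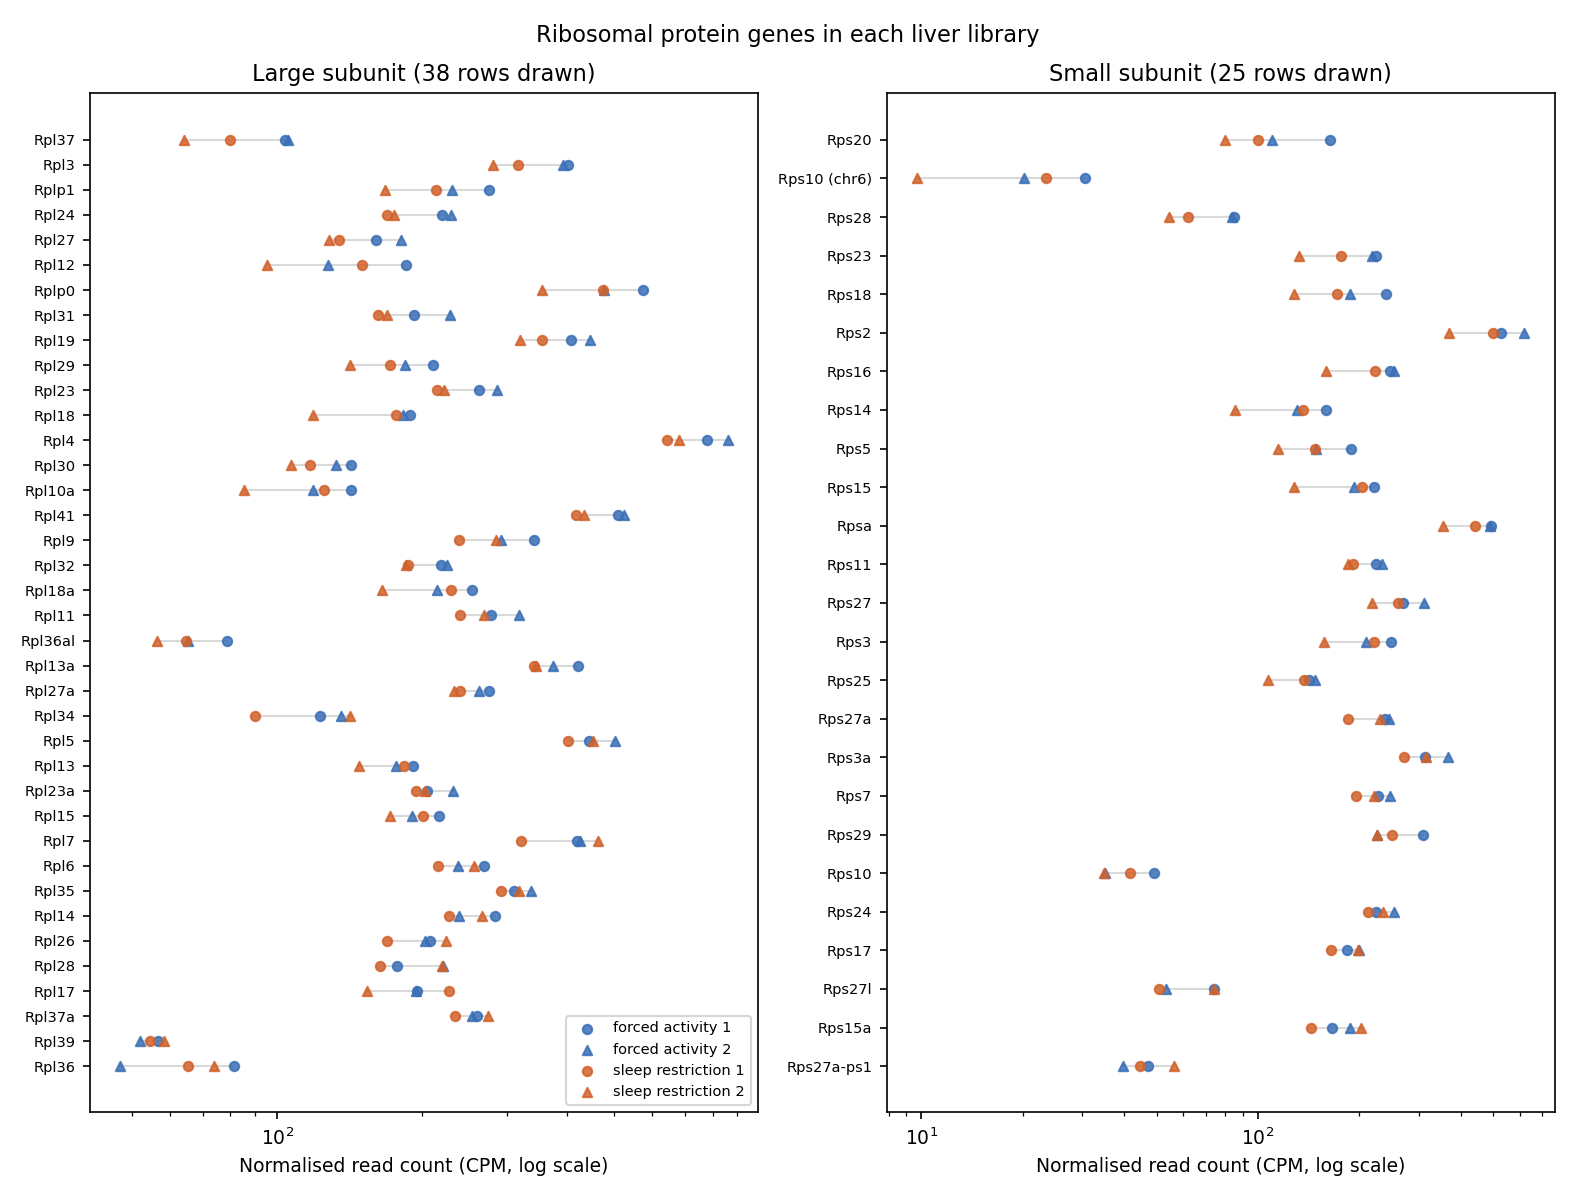
CPM on a log scale (x axis) of 63 of the 64 tested ribosomal protein rows (y axis, large subunit left and small subunit right, ordered by log2 change with the most negative on top), each library 1 point (blue, forced activity; orange, sleep restriction; circles, replicate 1; triangles, replicate 2). In 34 of the rows drawn both orange points lie to the left of both blue points, and in 0 rows both lie to the right. The second Rps10 row is marked by its chromosome.

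Rps20 and Rps23, both of the small subunit, were among the members with the smallest p. Rps20 (chromosome 5 from 16706082 to 16706909 in rn6), a protein of the subunit's head, measured 163 CPM in FA1, 110 in FA2, 100.3 in SR1 and 79.7 in SR2. The groups did not overlap, though FA2 lay close to SR1. Its log2 change was -0.57 (SE 0.25, unadjusted p = 0.0423, adjusted p = 0.999 in edgeR), the most negative of all members, and it ran from -0.84 to -0.27 with 1 library left out. Rps23 (chromosome 2 from 19823234 to 19824804), which sits at the decoding centre where codons are read, measured 224 and 218 CPM in FA1 and FA2, then 177 and 132 CPM in SR1 and SR2, the order kept below. Its FA libraries nearly coincided and both SR libraries were lower, with a log2 change of -0.50 (SE 0.22, unadjusted p = 0.0418, adjusted p = 0.999 in edgeR). A second Rps23 row on chromosome 16 was listed at 0.

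Rps28 and Rps18 had the next smallest p in the small subunit. Rps28, which lies near the exit of the mRNA channel, measured 84.8 and 83.6 CPM, then 62.1 and 54.4 CPM, a log2 change of -0.50 (SE 0.22). The spread within each group was small beside the distance between them. Rps18, another head protein, measured 241 and 188 CPM, then 172 and 128 CPM, a log2 change of -0.50 (SE 0.23). Its groups did not overlap, and its libraries of equal number differed by -0.48 and -0.54.

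In the large subunit, Rpl37 had the smallest p of all members. Its counted row measured 104 and 105 CPM, then 79.8 and 64.1 CPM, a log2 change of -0.52 (SE 0.22, unadjusted p = 0.0393, adjusted p = 0.999 in edgeR). This row covers 0.347 kb on chromosome 10 (64336200 to 64336546 in rn6), the shortest interval of any tested member, while RefSeq places the gene of that symbol on chromosome 2 of GRCr8. Which locus gave these reads was not tested. A second Rpl37 row, on chromosome 9, held at most 0.2 counts.

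Rpl3, Rpl24 and Rplp1 followed. Rpl3, whose position close to the peptidyl transferase centre is well known, measured 401 and 392 CPM, then 316 and 280 CPM, a log2 change of -0.40 (SE 0.20). Rpl24, at the interface of the subunits, measured 219 and 229 CPM, then 169 and 175 CPM, a log2 change of -0.37 (SE 0.20). In both genes the libraries within a group were close and the groups stood apart. Rplp1, part of the acidic stalk that recruits elongation factors, measured 275 and 230 CPM, then 213 and 167 CPM, a log2 change of -0.40 (SE 0.22). Rplp0, the base of that stalk, measured 574 and 476 CPM, then 473 and 354 CPM, with the lower FA library next to the higher SR library and a log2 change of -0.34 (SE 0.22). The third stalk symbol, Rplp2, was listed at 0 in every library.

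The members with the highest normalised counts had the same direction. Their levels cannot be ranked as transcript numbers, since CPM is not divided by transcript length. Rpl4, a core protein of the exit tunnel, measured 779 and 859 CPM, then 644 and 682 CPM, a log2 change of -0.30 (SE 0.19). Rpl41, a very short peptide, measured 509.9 and 524 CPM, then 416 and 433 CPM (log2 change -0.28, SE 0.19). Both showed groups that did not overlap and little spread within them. Rpsa, also known as a laminin receptor, measured 491 and 490.3 CPM, then 442 and 354 CPM (log2 change -0.30, SE 0.20). Rps2, of the mRNA entry channel, measured 526 and 619 CPM, then 499.7 and 369 CPM, and most of its log2 change of -0.40 (SE 0.22) came from replicate 2, where it was -0.74, against -0.075 in replicate 1.

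Rpl5 and Rpl11 bind 5S ribosomal RNA and, when free of the ribosome, the p53 regulator Mdm2. Rpl11 measured 278 and 318 CPM, then 239 and 268 CPM, a log2 change of -0.22 (SE 0.20), with groups that did not overlap. Rpl5 measured 444 and 503 CPM, then 401 and 451 CPM, a log2 change of -0.15 (SE 0.20), and its groups overlapped by 1 library. Rps3a, of the platform region, overlapped in the same way at 314 and 368 CPM, then 272 and 317 CPM (log2 change -0.21, SE 0.21). Rps27, a zinc finger protein, did not overlap at 270 and 312 CPM, then 260 and 218 CPM (log2 change -0.28, SE 0.21).

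The members differed among themselves in how far they were shifted. The log2 change was -0.3 or lower in 24, between -0.3 and -0.1 in 25, and above -0.1 in 15. The last class held Rpl37a (260 and 253 CPM, then 234 and 274 CPM), Rpl39 (56.7 and 51.9 CPM, then 54.5 and 58.3 CPM) and Rpl36 (81.2 and 47.3 CPM, then 65.3 and 73.8 CPM), with log2 changes of -0.013 (SE 0.20), 0.050 (SE 0.24) and 0.12 (SE 0.27). In all 3 the groups overlapped. The standard errors of the 64 members lay between 0.19 and 0.37, and whether members differ from each other was not tested. Besides Rpl36 and Rpl39, only the pseudogene symbol Rps27a-ps1 had a positive change among the tested members, at 47.0 and 39.9 CPM, then 44.7 and 56.3 CPM (log2 change 0.20, SE 0.25).

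Within replicate 1 the change was negative in 63 of 64 members with a median of -0.23, and within replicate 2 in 53 of 64 with a median of -0.32. Both were negative in 52 members (81.2%), against 27.8% of all tested genes. For all tested genes the medians were -0.0043 in replicate 1 and 0.014 in replicate 2. The size within replicate 1 did not follow the size within replicate 2 across members (Spearman rho 0.012, 64 members that share the same 4 libraries). Of the 12 members that were not negative in both, 11 were lower in replicate 1 and higher in replicate 2, namely Rpl7 (418 and 425 CPM, then 320.3 and 462 CPM), Rps27l (74.1 and 53.4 CPM, then 50.6 and 73.8 CPM), Rpl6, Rpl14, Rpl26, Rpl34, Rpl36, Rpl37a, Rpl39, Rps15a and Rps27a-ps1. Rpl17 alone went the other way, with 195 and 194 CPM, then 227 and 153 CPM. Large subunit members had medians of -0.27 and -0.26 in replicates 1 and 2, and small subunit members -0.22 and -0.38.

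**Figure D4:**
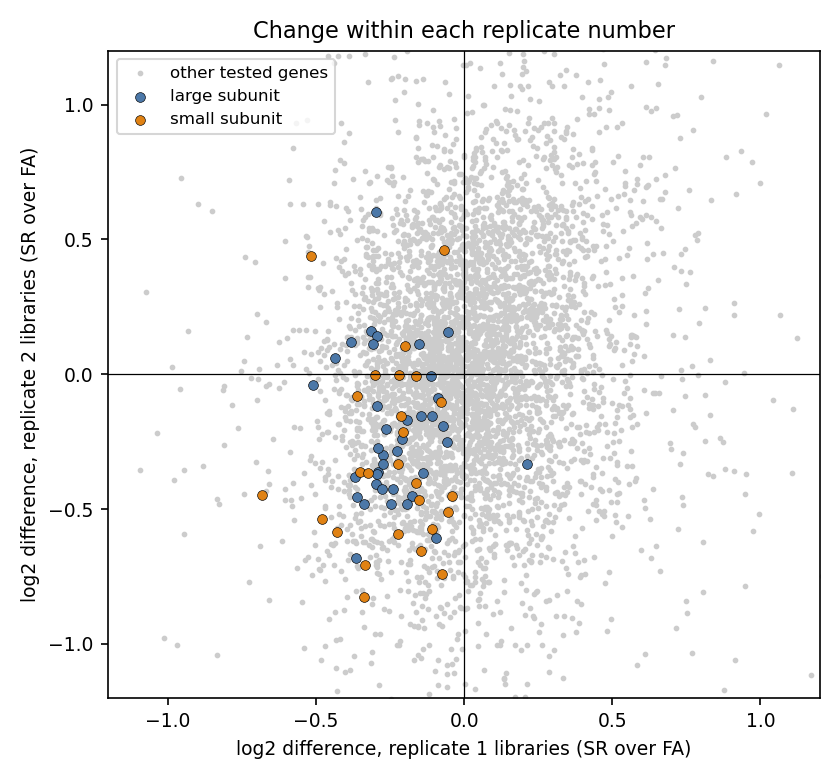
log2 difference of sleep restriction over forced activity within replicate 1 (x axis) and within replicate 2 (y axis) for large (blue) and small (orange) subunit members over all other tested genes (grey). 52 of 64 members lie at the lower left, where both differences are negative, and 11 lie in the upper left. 184 other genes lie beyond the axes, which end at -1.2 and 1.2.

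The pooled medians of the subunits lay close to each other, -0.23 for 38 large subunit members and -0.28 for 26 small subunit members. The change was negative in 36 of 38 and 25 of 26, against 47.5% of all tested genes. The groups lay apart downwards in 21 and 14, against 15.5% of all tested genes. Of the 4 members lower at an unadjusted p under 0.05 in edgeR, 1 was of the large subunit and 3 were of the small subunit. Over all tested genes that share was 1.36%. No test was made of a difference between subunits. Without SR2 the order of the medians turned, with -0.23 for the large and -0.20 for the small subunit.

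The tested members had genomic intervals of 0.347 to 7.31 kb, with a median of 2.89 kb, against 22.04 kb for all tested genes. Across tested genes outside the family, log2 change and span had a Spearman rho of 0.25, with shorter genes lower under sleep restriction. The 299 other genes with spans between 1.94 and 3.90 kb, the members' quartiles, had a median log2 change of -0.093, and 63.2% of them were negative. The 38 other genes within the members' quartiles of both span and level had a median of -0.11, with 71.1% negative, against -0.26 and 95.3% in the members. Span and family membership therefore moved together here, and how much of the members' shift goes with span was not tested.

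Among the members themselves the relation with span was weak (rho 0.19 over 64 members). It was -0.032 over the large and 0.40 over the small subunit, and in the small subunit 0.024 within replicate 1 and 0.35 within replicate 2. The 22 members with the shortest spans had a median of -0.29, the 21 in the middle -0.20 and the 21 with the longest -0.22. The 3 shortest intervals were those of Rpl37, of the Rps10 row on chromosome 6 (30.6 and 20.2 CPM, then 23.4 and 9.71 CPM, log2 change -0.51, SE 0.37, but -0.10 without SR2, -0.25 without FA1 and -1.10 without SR1) and of Rps27a-ps1, which went in different directions. The 3 longest were those of Rpl7 (log2 change -0.10, SE 0.22), Rpl5 and Rpl11.

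**Figure D5:**
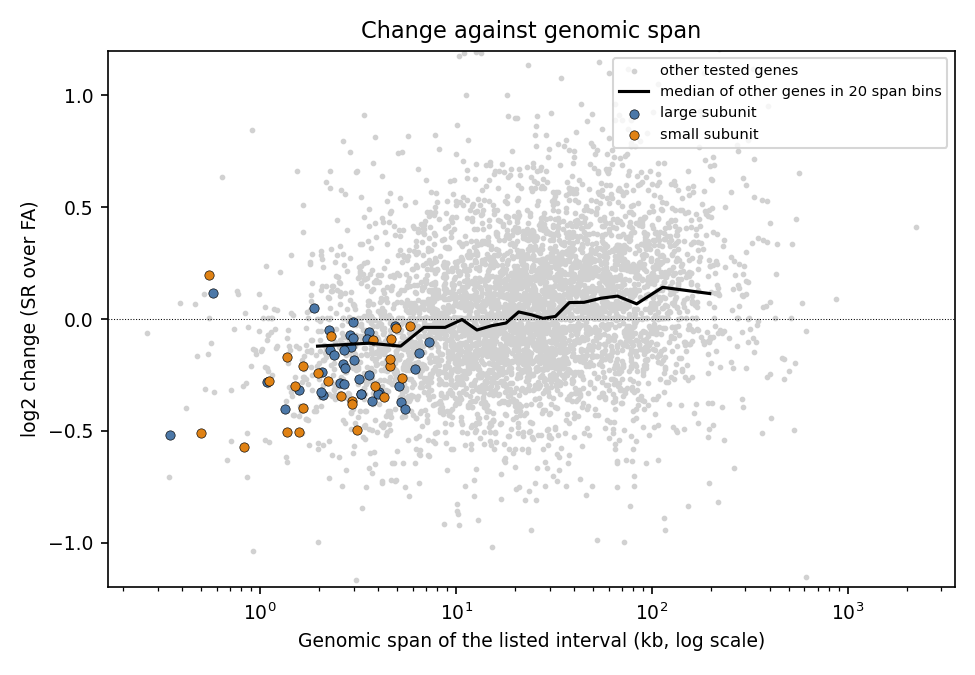
log2 change (y axis) against the length of the listed genomic interval in kb on a log scale (x axis) for large (blue) and small (orange) subunit members and other tested genes (grey), with the median of the other genes in 20 span bins (black line). 49 of 64 members lie below the black line at their span, and 17 other genes lie beyond -1.2 and 1.2.

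The remaining 45 rows were not tested. Of these, 26 were at 0 in every library, among them every row of 6 canonical symbols, namely Rpl7a, Rpl8, Rpl35a, Rpl38, Rplp2 and Rps6. Rps6 is the substrate that gave the Rps6k kinases their name, and every cell needs these proteins, so a listing at 0 is not read as absence of the transcript. Also at 0 were Rpl3l, a striated muscle form of Rpl3, the pseudogene symbols Rps2-ps1, Rps2-ps2 and Rps25-ps2, and further rows of Rpl39, Rplp1, Rps2, Rps23 and Rps29. The other 19 rows held at most 11.2 counts in any library, the highest being Rps4y2. They included Rps4x (5.0, 2.7, 3.3 and 1 counts) and Rps19 (1.0, 0.6, 0.4 and 3 counts). The same was true of Rpl10l, Rpl39l, Rps17l, the Rps19 binding protein Rps19bp1, the pseudogene symbols Rpl26-ps1, Rpl26-ps2, Rpl34-ps1, Rpl37-ps1, Rps15-ps2 and Rps2-ps6, and second rows of Rpl32, Rpl36al, Rpl37, Rps28 and Rps29. All untested rows together held 0.0052% to 0.0060% of a library.

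Copies bear on the tested rows too. The table repeats 13 member symbols, and 11 tested rows belong to such a symbol. Rpl39 has 7 rows, of which only that on chromosome X (123705384 to 123707257) held counts, at 28.0, 28.0, 28.2 and 30. Rps10 has 2 tested rows, on chromosome 20 (24.3, 18.9, 21.6 and 18 counts) and chromosome 6 (15.1, 10.9, 12.1 and 5 counts). Rpl36al has its counts at chromosome X (38.8, 35.3, 33.5 and 29 counts), and how reads were split between Rpl36al and near copies is uncertain. Rps29 held 153, 122, 129 and 116 counts at chromosome 6, Rpl32 held 108, 122, 96.7 and 95 at chromosome 4, and their other rows at most 2. Of 80 canonical ribosomal proteins, 12 have no row under the rule. Rpl10, Rpl21, Rpl22, Rpl36a, Rps9, Rps12, Rps13, Rps21 and Rps26 were not analysed here, and Fau and Rack1 are among those that carry other names.

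Gnb2l1, the older symbol of the small subunit scaffold Rack1, measured 278 and 255 CPM, then 240 and 185 CPM (log2 change -0.32, SE 0.21). Fau was listed at 0.

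Other mRNAs known for a TOP tract, mostly of translation factors, were tested in 17 rows, and none passed. The log2 change was negative in 13, with a median of -0.12, and the groups lay apart downwards in 4 and upwards in 0, against 15.5% and 16.8% of all tested genes. The difference from the ribosomal protein genes was not tested. Eef1b2, which reloads elongation factor 1A with GTP, had the smallest p, at 167 and 196 CPM, then 138 and 124 CPM (log2 change -0.47, SE 0.21). Its partners Eef1g (log2 change -0.27, SE 0.21) and Eef1d (log2 change -0.28, SE 0.24) had groups that did not overlap. Eef1a1, the elongation factor itself, had -0.21 (SE 0.20). Tpt1, a growth-linked protein, measured 1743 and 2276 CPM, then 1619 and 2429 CPM, a spread by replicate number in both groups, and its log2 change of 0.011 (SE 0.23) turned negative under 9 other settings.

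Of 20 tested ribosome biogenesis genes, among them genes of ribosomal RNA transcription, 15 had a positive and 5 a negative change. Their median was 0.13, and none passed the test. Their groups lay apart upwards in 4 and downwards in 1, where the shares over all tested genes were 16.8% and 15.5%. Wdr43, needed for early 40S processing, measured 17.8 and 15.0 CPM, then 25.5 and 33.0 CPM (log2 change 0.70, SE 0.30). Ubtf, which activates ribosomal RNA genes, had 0.44 (SE 0.26) and Gnl2, an assembly GTPase, had 0.43 (SE 0.31), values that were 0.16 and 0.10 without SR2 and 0.67 and 0.69 without SR1. Ncl, the abundant nucleolar protein nucleolin, measured 183 and 186 CPM, then 194 and 239 CPM (log2 change 0.23, SE 0.21). Npm1, a second abundant nucleolar protein that is also a TOP mRNA, had 0.23 (SE 0.25) and Nop2, which methylates ribosomal RNA, had -0.51 (SE 0.36). No test was made of the difference between these genes and the members.

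Genes of the mTORC1 pathway were divided. Of 21 tested, 10 had a positive and 11 a negative change, with a median of -0.058, and none passed the test. Groups lay apart downwards in 4 and upwards in 3 of them, against 15.5% and 16.8% of all tested genes. Eif4g1, the scaffold of cap-dependent initiation, measured 124 and 94.2 CPM, then 176 and 165 CPM (log2 change 0.63, SE 0.22), with the groups apart. Larp1, the TOP binding protein, measured 56.5 and 43.9 CPM, then 73.8 and 69.9 CPM (log2 change 0.48, SE 0.24). Lamtor4, of the complex that holds mTORC1 at the lysosome, measured 66.2 and 72.9 CPM, then 44.1 and 38.9 CPM (log2 change -0.69, SE 0.24). Lamtor5 of that complex had -0.64 (SE 0.33), with -0.087 within replicate 1 and -1.33 within replicate 2. Its change was -0.27 without SR2 and -1.17 without SR1. Lamtor2 had -0.24 (SE 0.23), and Lamtor1 had -0.12 (SE 0.33) with groups that overlapped. Lamtor3 of the same complex was not tested and was higher in both SR libraries, at 14.0 and 10.2 CPM, then 14.9 and 19.4 CPM.

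Mitochondrial ribosomal proteins, the other ribosome of the cell, had a median of -0.12 over 55 tested genes, with 32 negative and 23 positive, where 47.5% of all tested genes were negative. Their groups lay apart downwards in 17 and upwards in 5, against 15.5% and 16.8% of all tested genes. The difference from the cytosolic set was not tested.

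Markers of other cells were read beside the members' share. Lymphocyte markers summed to 198 and 202 CPM, then 73.7 and 95.2 CPM, so they were lower in the same libraries as the members. Only 2 of their 10 rows were tested, both with negative changes and a median of -1.26, and none was at 0. Endothelial markers summed to 251 and 701 CPM, then 633 and 354 CPM, macrophage markers to 625 and 805 CPM, then 978 and 663 CPM, and red cell markers to 833 and 1701 CPM, then 1119 and 649 CPM. These 3 lists overlapped between the groups and had no row at 0 among 11, 11 and 6. All 3 tested red cell markers had a negative change, the members' direction, with a median of -0.51. The change was positive in 8 of 10 tested macrophage markers (median 0.18) and in 6 of 9 endothelial markers (median 0.070). The part of any of these cells in the members' result was not tested.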

How the data were processed

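Liver RNA was extracted with TRIzol and sequenced as purified mRNA, per the labels' protocols. The submitters' processing notes list CASAVA, STAR 2.4.1d and rn6 without saying what each did, and no source used here names the program that counted reads. In the deposited table the authors give estimated counts per gene in steps of 0.1, which with the table's name points to a mean over 10 draws of reads; only sense reads are named. All 37 mitochondrial rows are at 0.

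Values were rounded and tested with edgeR 4.0.16 (R 4.3.3): TMM factors (0.972, 1.04, 1.00 and 0.989), filterByExpr (minimum count 10), robust quasi-likelihood, Benjamini-Hochberg adjustment over all genes, threshold 0.05, prior count 2. SE is the change over the square root of F. The test was checked on simulated counts, which held no averaged draws and no unequal sequencing depth. CPM uses unrounded counts and whole library totals; n is 2 per group. Members, lists and tests were chosen with earlier results of these data known. Named were, per subunit, 5 members of highest CPM and 4 of smallest p, members with extreme spans, repeated or zero rows or unlike pairs, and per other list 4 of smallest p and 2 of highest CPM; canonical proteins without a member row were named too. Single results of a few genes are not reported here. Alternatives are other scalings, filters, tools (DESeq2 1.42.0, limma 3.58.1), effective counts, a replicate block and each library left out.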

Additional observations from a re-analysis of the deposited data

How the results depend on the processing

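Of 17 other settings, none called a member, and the members' median log2 change stayed between -0.32 and -0.22, with 61 of the 64 members negative in every setting that kept all libraries. One gene outside the family passed the adjusted threshold; the number of genes that passed was 5 with no gene filter, 2 with DESeq2, 0 with limma-voom, 0 without robust estimation, 2 with effective counts, which scale each library by the precision estimated for its averaged draws, and 0 to 0 with each library left out. The difference in the members' share of counts, -0.262 points, was -0.333 points with the 10 most abundant genes taken out of the total, because the total is then smaller.

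Replicate numbers were shared by the groups, but the labels do not say that they pair animals, and deviations from the group means correlated at 0.202 between libraries of equal number. With the replicate block 5 genes passed, none of them a member, the smallest adjusted p of a member in edgeR was 0.473, and 8 members were lower at an unadjusted p under 0.05, against 2.25% of all tested genes.

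Signs were followed for the named genes only, none of which passed the test in any setting. Sign changes of other genes, members among them, are not listed. The cause of the sign changes was not tested. Tpt1 was -0.0108 with upper quartile factors, -0.0088 with library totals only, -0.0115 with no gene filter, -0.015 with a filter of 5 CPM, -0.0046 with limma-voom, -0.0101 with effective counts and -0.0034 with the replicate block. With each library left out, the lowest and highest log2 changes were -0.3886 and 0.1256 for Rpl7, -0.1964 and 0.0582 for Rpl14, -0.3432 and 0.2121 for Rpl17, -0.2762 and 0.1179 for Rpl26, -0.5253 and 0.1188 for Rpl34, -0.2057 and 0.5011 for Rpl36, -0.1327 and 0.0841 for Rpl37a, -0.0129 and 0.1077 for Rpl39, and -0.2174 and 0.0146 for Rpl6. They were -0.2999 and 0.1805 for Rps15a, -0.3275 and 0.194 for Rps27l, -0.3003 and 0.1256 for Rps10 on chromosome 20, -0.3798 and 0.0693 for Rps29, -0.313 and 0.2645 for Tpt1, -0.9415 and 0.1681 for Nop2, and -0.1599 and 0.5262 for Npm1. In fits that leave a group with 1 library, that library is assumed to vary like the others. The kept fraction of reads behind the values was estimated at 0.03 and 0.06 in FA1 and SR1, and at 0.59 and 1 in FA2 and SR2, so the precision of low counts differs with replicate number.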
